A study of Mus musculus with 12 samples.

Results

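The enzymes that make and break down prostaglandins and leukotrienes were followed in epidermal scrapings of mouse dorsal skin by RNA sequencing. They were 10 genes chosen by symbol: Ptgs1, Ptgs2, Ptges, Ptgis, Ptgds, Hpgd, Hpgds, Alox5, Alox5ap and Alox12. Of the 10, 9 had a row among the 14533 genes of the deposited table of counts, and Ptgis, prostacyclin synthase, had no row and was not analysed here. All 14533 genes had more than 0.5 CPM (counts scaled by library size) in 6 or more mice, so each of the 9 had passed such a limit on low counts.

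The libraries came from 6 wildtype (WT) and 6 Pparg-/-epi mice of the C57BL/6 strain, 1 library per mouse. Every mouse of both groups carried 2 floxed Pparg alleles. The Pparg-/-epi mice also carried 1 copy of a Cre transgene driven by the Cytokeratin14 promoter, which is active in the basal cells of the epidermis and its appendages, and the WT mice were siblings without Cre. The skin was untreated and non-lesional, and it was scraped down to the vessels just under the epidermis, so the RNA included the superficial dermis. WT mice were 3 females and 3 males, Pparg-/-epi mice 4 females and 2 males, all aged 8 to 13 weeks by the labels. The study's methods give a younger range, and the ages of the labels were used here.

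Prostaglandins start from arachidonic acid, which the cyclooxygenases turn into an unstable intermediate, prostaglandin H2. Separate terminal synthases then convert it into PGE2, PGD2, prostacyclin or thromboxane, and a dehydrogenase inactivates the products. Lipoxygenases draw on the same fatty acid to make leukotrienes and hydroxy fatty acids. In skin these lipids are known for their part in inflammation, itch, keratinocyte growth and formation of the water barrier, and PPARγ, a nuclear receptor that binds DNA with a retinoid X receptor, can be activated by fatty acids and their oxidised products.

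Total counts ranged from 10120840 to 16947632 in the WT mice and from 11272135 to 18851255 in Pparg-/-epi mice. Pparg itself had 5 to 269 counts in the WT mice and from 16 to 107 among Pparg-/-epi mice (log2 fold change -0.10, edgeR's quasi-likelihood test, adjusted p = 0.949). Cre removes only part of the gene and leaves a shortened transcript, so these counts did not check the genotypes. The numbers in the mouse names were not evenly spread: 4 of the 6 WT mice (replicates 3 to 6) carried the number 226 in their names, which no Pparg-/-epi mouse did. RNA integrity numbers lay between 5.7 and 8.6.

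Of the 9 enzymes, 4 were lower in Pparg-/-epi mice and 0 were higher. At an unadjusted p under 0.05 there were 5, the other being Ptges, which DESeq2 counted as altered and higher. The 4 were Hpgds, a PGD2 synthase, Alox5, the first enzyme of leukotriene synthesis, Alox12, a lipoxygenase of the epidermis and of platelets, and Hpgd, the enzyme that inactivates prostaglandins. Altered means here a log2 fold change of 0.6 and above, or -0.6 and below, with an adjusted p below 0.05 in edgeR's quasi-likelihood test over all 14533 genes, of which 10.3% were altered, 5.19% higher and 5.08% lower. The median log2 fold change was -0.44 over the 9 enzymes and -0.01 over all genes. Hpgds and Alox5 were also without overlap between the groups, which held for 7.90% of all genes in either direction and for 3.95% in the lower one. In bulk tissue, fewer cells of a type and less RNA per cell cannot be told apart.

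The stretches before the start sites of the 4 altered genes are shown because each was lower in Pparg-/-epi mice. Within the groups these genes did not all vary together. The stretches are the 250 bases upstream of the RefSeq start on the gene's own strand in GRCm38.p6, the assembly that mm10 names. The windows were chr6:65144731-65144980 (minus strand) for Hpgds, chr6:116461179-116461428 (minus strand) for Alox5, chr11:70255371-70255620 (minus strand) for Alox12 and chr8:56294302-56294551 (plus strand) for Hpgd. Capitals mark, in each, the 13 bases most like a DR1 element, the layout known for PPARγ and its partner: AGGTCA, 1 free base, and AGGTCA again, on either strand.
Hpgds: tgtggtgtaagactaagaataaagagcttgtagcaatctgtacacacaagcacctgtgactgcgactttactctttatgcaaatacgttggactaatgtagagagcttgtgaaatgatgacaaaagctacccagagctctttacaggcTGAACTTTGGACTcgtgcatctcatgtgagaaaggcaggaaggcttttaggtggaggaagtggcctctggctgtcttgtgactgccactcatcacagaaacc
Alox5: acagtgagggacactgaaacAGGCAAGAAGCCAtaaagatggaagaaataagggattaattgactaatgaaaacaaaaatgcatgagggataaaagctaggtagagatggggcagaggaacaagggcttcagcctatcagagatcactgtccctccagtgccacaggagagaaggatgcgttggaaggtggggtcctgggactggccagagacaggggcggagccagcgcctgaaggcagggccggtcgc
Alox12: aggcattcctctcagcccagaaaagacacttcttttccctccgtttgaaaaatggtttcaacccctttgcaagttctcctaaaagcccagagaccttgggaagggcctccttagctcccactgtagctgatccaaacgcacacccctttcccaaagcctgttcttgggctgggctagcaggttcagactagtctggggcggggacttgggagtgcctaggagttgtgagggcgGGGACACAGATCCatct
Hpgd: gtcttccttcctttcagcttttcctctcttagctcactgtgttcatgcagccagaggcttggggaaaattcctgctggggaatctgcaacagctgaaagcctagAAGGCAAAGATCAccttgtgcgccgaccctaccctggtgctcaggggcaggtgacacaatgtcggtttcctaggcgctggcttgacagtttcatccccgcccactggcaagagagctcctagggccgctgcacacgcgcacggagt

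In these windows the best match to DR1 had 3 mismatches in Hpgds, on the minus strand of the gene and starting 102 bases before its start, and 3 in Hpgd, on the plus strand and starting 146 bases before it. Of 32851 promoters of the same length, 21.3% held a match with at most 3 mismatches. Alox5 and Alox12 reached 4 mismatches, and 74.5% of promoters had 4 or fewer. The DR1 layout was chosen after the sequences had been seen, and a match is a description of letters, not a bound site. Of the 9 enzymes, 8 had a promoter in the RefSeq table, and of the 5 shorter motifs searched on both strands of these 8, AGGTCA (in 14.0% of all promoters), TGACGTCA (1.55%), CACGTG (6.02%) and TATAAA (12.4%) were in none. TGANTCA (6.75% of all promoters) was in 1, that of Ptgds.

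**Figure D1:**
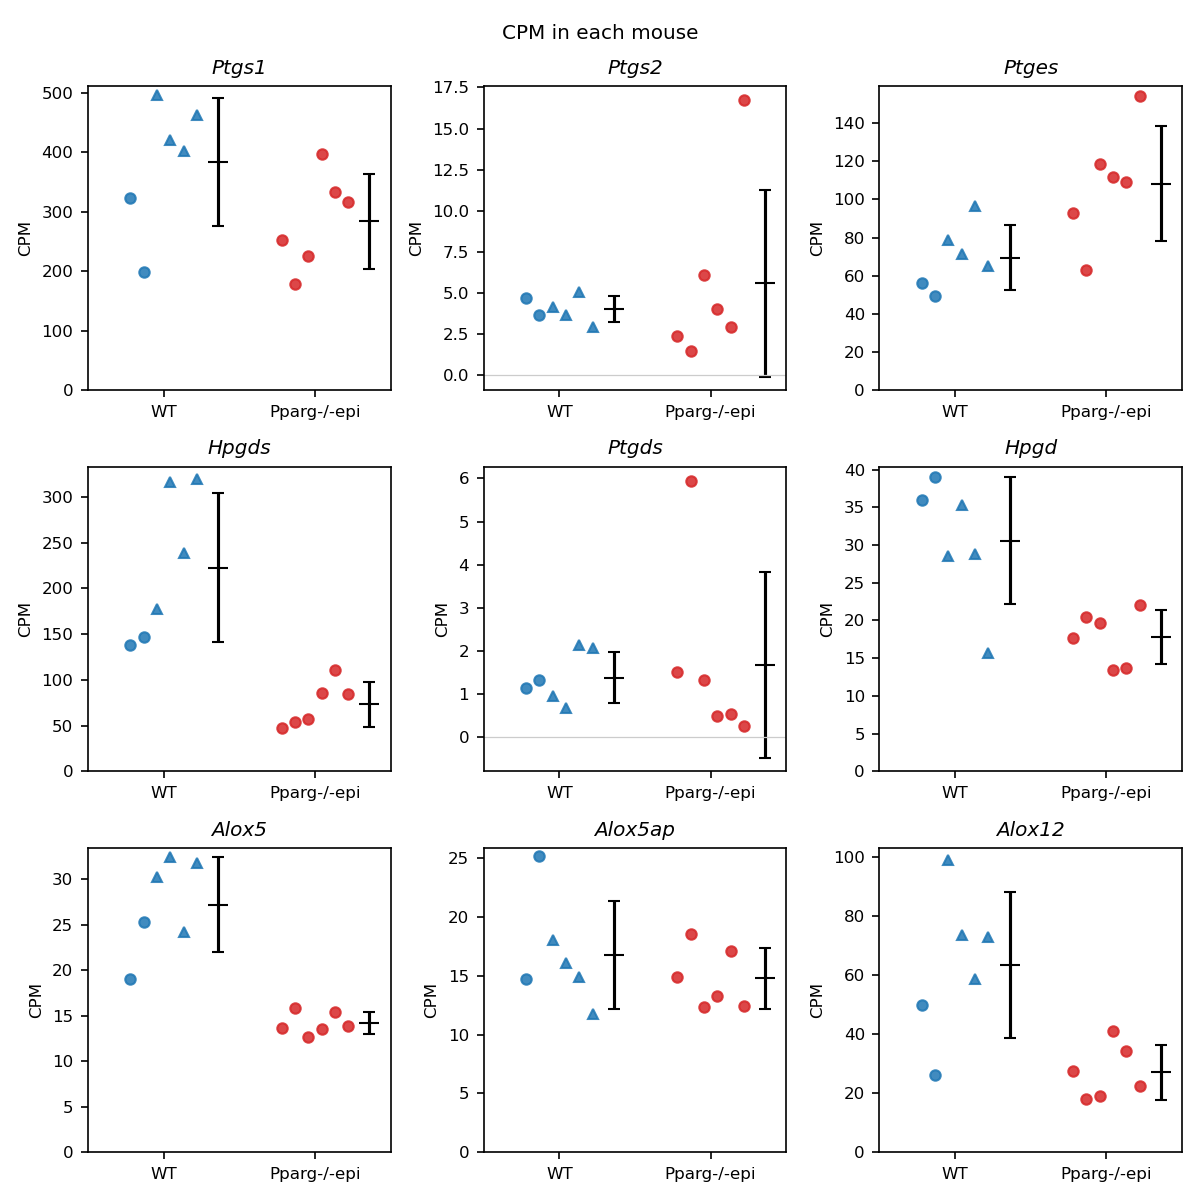
CPM (counts scaled by library size, linear axis) of the 9 enzymes in each of 6 WT (blue) and 6 Pparg-/-epi (red) mice, with the mean and SD at the side; triangles are the 4 WT mice whose names carry the number 226. Hpgds and Alox5 separate the groups, and single mice stand far above the rest for Ptgs2 (16.7 CPM) and Ptgds (5.94 CPM).

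On a scale per transcript length (RPKM, counts scaled to library size and gene length), Ptgs1 was the most abundant of the 9 in WT mice, at 134 ± 37.7 (SD, n = 6), rank 428 of all genes. Hpgds followed at 67.5 ± 24.7 RPKM, and a group of 4 came next: Alox12 at 21.2 ± 8.28, Ptges at 19.1 ± 4.62, Hpgd at 17.8 ± 4.87 and Alox5ap at 16.5 ± 4.53 RPKM, whose neighbours did not differ beyond their spread. Alox5 was at 9.61 ± 1.85 RPKM, and Ptgds at 1.72 ± 0.743 and Ptgs2 at 0.966 ± 0.190 RPKM closed the order. In Pparg-/-epi mice the order of levels was another: Ptgs1 at 99.1 ± 27.9 RPKM stayed first, Ptges at 29.7 ± 8.22 RPKM was second, and Hpgds at 22.2 ± 7.39 RPKM came next, within the spread of Ptges. Alox5ap then had 14.6 ± 2.55, Hpgd 10.4 ± 2.09, Alox12 9.06 ± 3.07 and Alox5 5.01 ± 0.431 RPKM, with Hpgd and Alox12 within each other's spread. Ptgds (2.09 ± 2.67 RPKM) and Ptgs2 (1.35 ± 1.37 RPKM) again came last, also within each other's spread.

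The cyclooxygenases open the pathway. Ptgs1, the constitutive enzyme at chr2:36230426-36252271 of mm10, ranged from 199.6 to 496 CPM with a median of 412 in the WT mice and from 178 to 398 CPM with a median of 284 in Pparg-/-epi mice. The groups overlapped, with WT replicate 2 lowest among WT mice and near the lowest Pparg-/-epi mouse. Its log2 fold change was -0.44 (standard error 0.23, 95% interval -0.93 to 0.06, edgeR's quasi-likelihood test, adjusted p = 0.230). Without WT replicate 2 the adjusted p was 0.0438, but the log2 fold change of -0.59 was short of the limit. With the RNA integrity number as a second term it was -0.19, and without the 4 WT mice of name number 226 it was 0.13 (adjusted p = 0.532 and 0.845). An annotated transcript on the opposite strand overlaps an exon of Ptgs1, and whether the counting used strand was not given in the sources used here.

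Ptgs2, the inducible cyclooxygenase at chr1:150100124-150108012, was scarce in both groups. It had 2.90 to 5.06 CPM (median 3.89, 39 to 73 counts) in the WT mice and 1.46 to 16.7 CPM (median 3.44, 24 to 195 counts) in Pparg-/-epi mice. Pparg-/-epi replicate 12 held the 195 counts, while the other 5 mice of its group were at 1.46 to 6.06 CPM around the WT range. The log2 fold change of 0.47 (standard error 0.50, edgeR's quasi-likelihood test, adjusted p = 0.576) was within the spread between mice, and without Pparg-/-epi replicate 12 it was -0.26. Per length, the ratio of Ptgs1 to Ptgs2 ranged from 80.0 to 232 in the WT mice and from 27.4 to 177 in Pparg-/-epi mice.

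Ptges encodes the microsomal PGE2 synthase that is usually coupled to inducible cyclooxygenase, and it lies at chr2:30889471-30903297. Its CPM ran from 49.6 to 96.7 (median 68.1) in the WT mice and from 63.1 to 154 (median 110.2) in Pparg-/-epi mice. Pparg-/-epi replicates 7 and 8 were within the WT range, the other 4 were above every WT mouse, and replicate 12, the mouse with high Ptgs2, was highest. Ptges had 0.64 on the log2 scale (standard error 0.20, 95% interval 0.20 to 1.07), and the adjusted p of 0.0503 in edgeR's quasi-likelihood test missed the threshold. Ptges was counted as altered and higher in 10 of 23 alternative analyses, among them without WT replicate 5 (adjusted p = 0.0292) and without Pparg-/-epi replicate 8 (adjusted p = 0.0154). Leaving out Pparg-/-epi replicate 12 gave 0.51 on the log2 scale.

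The 2 PGD2 synthases were very unequal in level. Hpgds, the glutathione-dependent form known from mast cells and antigen-presenting cells, lies at chr6:65117293-65144730 and had 138 to 319 CPM (median 208) in the WT mice and 47.3 to 111 CPM (median 71.0) in Pparg-/-epi mice. All 6 WT mice were above all 6 Pparg-/-epi mice, with WT replicates 1 and 2, at 138 and 147 CPM, closest to them. Its log2 fold change was -1.60 (standard error 0.27, 95% interval -2.19 to -1.02, edgeR's quasi-likelihood test, adjusted p = 0.00213), which is 0.329 of the WT level. With the 4 WT mice of name number 226 left out, the difference on the log2 scale was -0.94 and was not called (adjusted p = 0.123), although both remaining WT mice were still above every Pparg-/-epi mouse.

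Ptgds, the lipocalin-type PGD2 synthase at chr2:25466712-25469749, had 9 to 33 counts (0.672 to 2.13 CPM, median 1.24) in WT mice. In Pparg-/-epi mice it had 3 to 98 counts (0.258 to 5.94 CPM, median 0.937). Pparg-/-epi replicate 8 alone had the 98 counts, and replicates 10, 11 and 12 were below every WT mouse. The log2 fold change was 0.30 (standard error 0.64, 95% interval -1.09 to 1.68, edgeR's quasi-likelihood test, adjusted p = 0.807) with all mice and -0.72 without that mouse (adjusted p = 0.369), so no direction was found at this depth.

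A comparison of both branches from the same intermediate was added after the values had been seen. The ratio of Ptges to Hpgds per length was 0.184 to 0.401 (median 0.336) in the WT mice and 0.889 to 1.86 (median 1.41) in Pparg-/-epi mice, with no overlap. No test was run on this ratio, whose denominator was already lower. It was above 1 in some Pparg-/-epi mice and in no WT mouse. These are transcript levels, and neither enzyme activity nor prostaglandins were measured here.

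**Figure D2:**
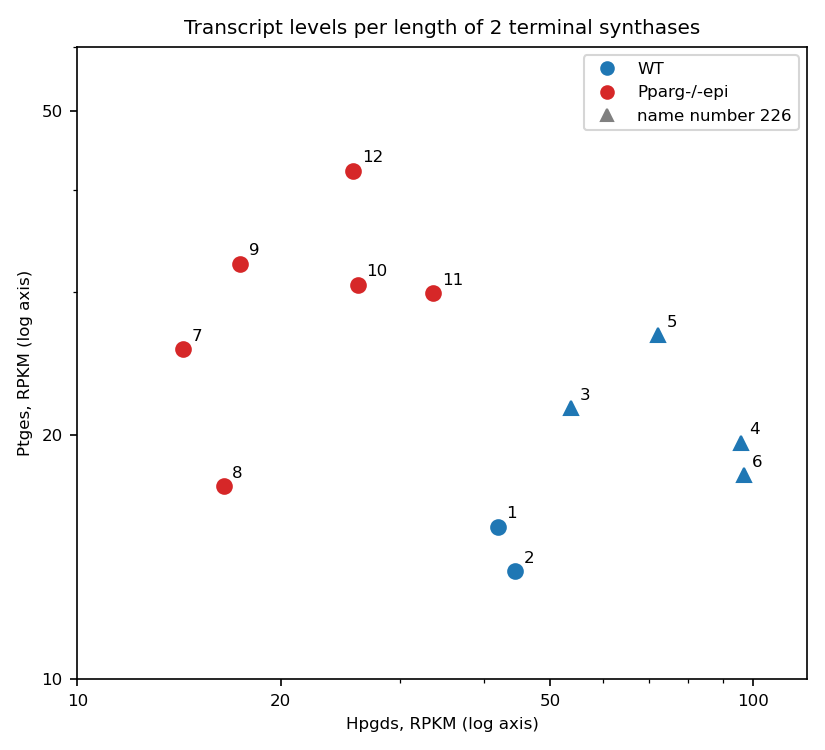
Ptges against Hpgds in each mouse, both in RPKM on log axes; blue points are WT and red points Pparg-/-epi mice, labelled by replicate, and triangles mark name number 226. Hpgds separates the groups along the horizontal axis, while Ptges of Pparg-/-epi replicates 7 and 8 lies among the WT values.

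Hpgd, at chr8:56294552-56321046, encodes the dehydrogenase that begins prostaglandin breakdown. It ranged from 15.7 to 39.1 CPM (median 32.1) in the WT mice and from 13.5 to 22.1 CPM (median 18.7) in Pparg-/-epi mice. The overlap came from WT replicate 6, at 15.7 CPM, while the other 5 WT mice were above all Pparg-/-epi mice. Its log2 fold change was -0.78 (standard error 0.21, 95% interval -1.22 to -0.33, edgeR's quasi-likelihood test, adjusted p = 0.0232). The call was lost without WT replicate 4 (adjusted p = 0.0543) and without Pparg-/-epi replicate 11 (adjusted p = 0.0507). Against only the WT mice outside name number 226 it was the 1 enzyme still altered, with a log2 fold change of -1.06 (adjusted p = 0.0261).

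Per length, the ratio of Ptges to Hpgd was 0.598 to 1.95 (median 1.12) in the WT mice and 1.45 to 3.90 (median 3.06) in Pparg-/-epi mice. The ranges overlapped.

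Alox5 starts leukotriene synthesis from arachidonic acid in leukocytes, and its gene lies at chr6:116410071-116461178. It had 19.0 to 32.4 CPM (median 27.8) in the WT mice and 12.7 to 15.9 CPM (median 13.8) in Pparg-/-epi mice. The groups did not overlap, and the Pparg-/-epi mice varied less, with a coefficient of variation of 8.59% against 19.2% in WT mice. Alox5 changed by -0.94 on the log2 scale (standard error 0.13, 95% interval -1.23 to -0.65, edgeR's quasi-likelihood test, adjusted p = 9.42e-04). Against the 2 WT mice outside name number 226 the log2 fold change was -0.63 and was not called (adjusted p = 0.0738).

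Its partner Alox5ap, the membrane protein that presents arachidonic acid to Alox5, lies at chr5:149265004-149288153. It ranged from 11.8 to 25.2 CPM (median 15.5) in the WT mice and from 12.3 to 18.6 CPM (median 14.1) in Pparg-/-epi mice. All 6 Pparg-/-epi mice were within the WT range, and WT replicate 2 was highest. The log2 fold change was -0.18 (standard error 0.18, 95% interval -0.57 to 0.21, edgeR's quasi-likelihood test, adjusted p = 0.549), and whether it differed from that of Alox5 was not tested. The ratio of Alox5ap to Alox5 per length was 1.03 to 2.77 in WT mice, against 2.5 to 3.26 among Pparg-/-epi mice. An annotated transcript on the other strand overlaps Alox5ap as well.

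Alox12, at chr11:70241455-70255341, had 26.1 to 99.1 CPM (median 65.9) in the WT mice and 18.0 to 41.2 CPM (median 25.0) in Pparg-/-epi mice. WT replicate 2 was within the Pparg-/-epi range, and the other 5 WT mice were above it. Alox12 changed by -1.23 on the log2 scale (standard error 0.29, 95% interval -1.86 to -0.59, edgeR's quasi-likelihood test, adjusted p = 0.0140). Without the 4 WT mice of name number 226 it was -0.48 (adjusted p = 0.485). None of the 75-base stretches of the 9 enzymes occurred in transcripts of another gene, the related epidermal lipoxygenases included.

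**Figure D3:**
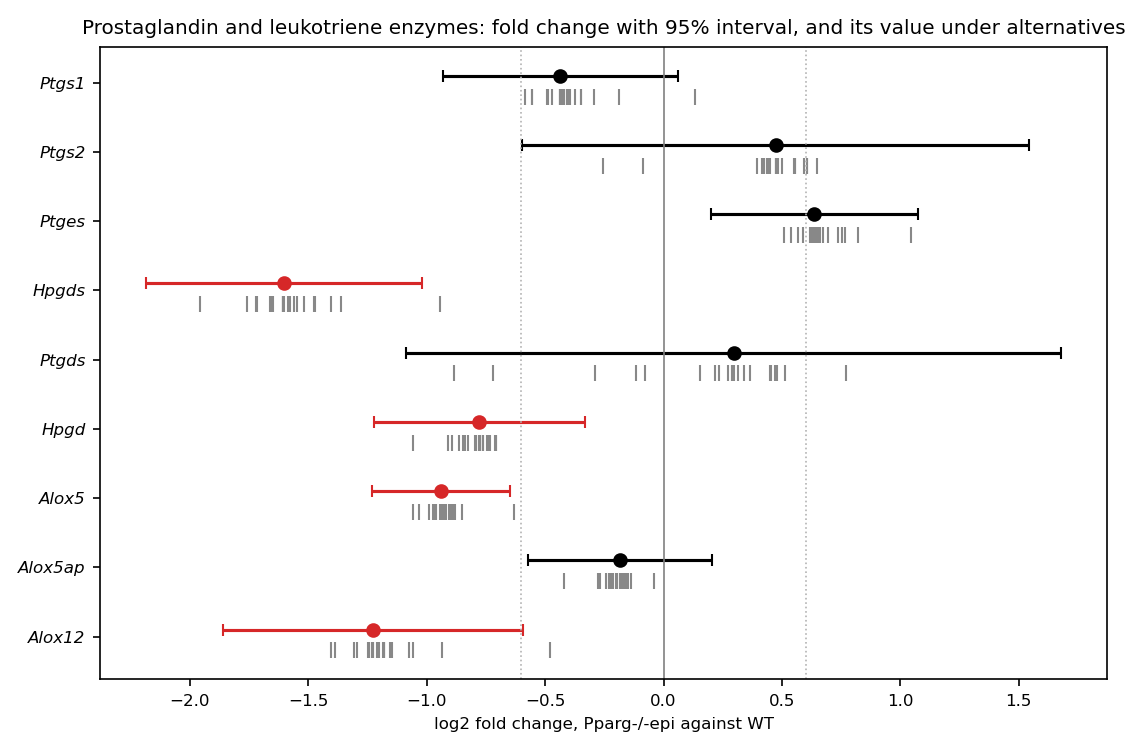
Log2 fold change of each enzyme with its 95% interval (points and bars; red for altered), and grey ticks for its value in each alternative analysis; dotted lines are at -0.6 and 0.6. Hpgds, Alox5, Alox12 and Hpgd stay below 0 under every alternative, while Ptgs1, Ptgs2 and Ptgds each cross 0 in at least 1.

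The counts of altered enzymes moved with the mice included. Among the 7 female mice alone, 2 were altered, Hpgds (log2 fold change -1.96) and Alox5 (-1.06), where 4.48% of all genes were. Without the 4 WT mice of name number 226, only Hpgd was altered, where 2.68% of all genes were. Leaving out 1 mouse at a time gave 3 to 5 altered enzymes, and Hpgds, Alox5 and Alox12 were altered each time. Genotype and name number cannot be fully told apart. The 4 WT mice of number 226 were also older, and had lower RNA integrity numbers, than the remaining WT mice. Leaving them out therefore changed age and RNA quality as well.

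Sex was examined with the same model. Females and males did not differ past the thresholds in any of the 9, and 0.0138% of all genes did. The lowest adjusted p was that of Ptgs2 (females minus males -1.07 on the log2 scale, edgeR's quasi-likelihood test, adjusted p = 0.285). The effect of genotype differed between the sexes in 0 of 14533 genes (0%) at an adjusted p under 0.05 in edgeR's quasi-likelihood test, and at an unadjusted p under 0.05 in 741 genes, 0 of the 9 enzymes among them. For Hpgds the log2 effect in females minus that in males was -0.83 (standard error 0.52, edgeR's quasi-likelihood test, adjusted p = 0.895). The largest of the 9 was that of Ptgds, at 2.66 (standard error 1.23, adjusted p = 0.895 in the same test). Only 2 Pparg-/-epi mice were male, so this fit could miss a real difference between the sexes.

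The rest of the eicosanoid pathways held 41 listed genes with a row, of 48, and 4 of them were higher and 1 was lower in Pparg-/-epi mice. These 5 were 12.2% of the 41, near the 10.3% of all genes, so the share of altered genes is no result about the lists. Beside each altered gene, the genes with the highest levels per length were named. In the leukotriene list, 2 of 13 were higher and 1 was lower (DESeq2 gave 2 and 2, adding Dpep2), with a median log2 fold change of 0.23. Ltc4s and Mgst2, which can both attach glutathione to leukotriene A4, were altered in opposite directions. Ltc4s, leukotriene C4 synthase, had 4.15 to 13.6 CPM (median 9.20) in the WT mice and 2.00 to 4.52 CPM (median 2.87) in Pparg-/-epi mice. The overlap was small, and its log2 fold change was -1.54 (standard error 0.31, edgeR's quasi-likelihood test, adjusted p = 0.00544). WT replicates 1 and 2, outside name number 226, were lowest of their group, at 4.15 and 6.05 CPM. WT replicates 3 to 6, of that number, were at 9.09 to 13.6 CPM. Whether the altered genes of these lists stay altered without those WT mice was not tested. Mgst2, a microsomal glutathione transferase, had 4.72 to 13.6 CPM (median 6.40) in the WT mice and 17.1 to 32.8 CPM (median 20.0) in Pparg-/-epi mice, without overlap, and its log2 fold change was 1.60 (standard error 0.26, adjusted p = 0.00180).

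Cotl1, an actin-binding protein that also binds the Alox5 protein, rose by 1.20 (log2, standard error 0.18, edgeR's quasi-likelihood test, adjusted p = 0.00124), from 20.0 ± 5.74 CPM to 46.2 ± 7.63 CPM (SD, n = 6), without overlap. Lta4h, which makes leukotriene B4, had 56.5 ± 3.43 CPM in the WT mice and 66.3 ± 2.30 CPM in Pparg-/-epi mice. The difference of 0.23 on the log2 scale had an adjusted p of 0.0277 but was under the limit of 0.6. Mgst3, a related microsomal glutathione transferase that had the highest RPKM of the list in both groups (44.6 in WT mice and 43.3 in Pparg-/-epi mice, log2 fold change -0.04, adjusted p = 0.878), and the leukotriene B4 receptor Ltb4r1 (0.34, adjusted p = 0.248) were not altered. An annotated transcript on the other strand overlaps Ltc4s.

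Of the 14 other genes of prostanoid synthesis, breakdown and transport with a row, of 17 listed, 1 was altered, and 2 with DESeq2, which added Fam213b as lower. The first was Cbr3, a carbonyl reductase, which rose by 0.73 (log2, standard error 0.12, edgeR's quasi-likelihood test, adjusted p = 0.00178) from 23.3 ± 3.27 to 38.7 ± 5.11 CPM (SD, n = 6), without overlap. Of the most abundant others, Fam213b, a prostamide and prostaglandin F synthase, was at -0.86 on the log2 scale (adjusted p = 0.0598). The values for Ptgr1, a prostaglandin reductase, and Slco3a1, a prostaglandin transporter, were -0.47 (adjusted p = 0.197) and -0.31 (adjusted p = 0.415). The list's median log2 fold change was -0.20. Of the 3 listed symbols without a row, 2, Prxl2b and Ptgr3, are newer names of Fam213b and Zadh2, which had rows.

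Of the prostanoid receptors, 6 of 10 had a row and 0 were altered in edgeR's quasi-likelihood test. At an unadjusted p under 0.05 there was 1, Ptgfrn, and DESeq2 altered 0. The median log2 fold change was 0.09. The PGE2 receptor Ptger4 had 29.2 ± 3.20 CPM in the WT mice and 28.0 ± 3.97 CPM in Pparg-/-epi mice (SD, n = 6), with a 95% interval of the log2 fold change from -0.30 to 0.18. Ptgfrn, a regulator of the prostaglandin F receptor, was at 0.25 on the log2 scale (adjusted p = 0.136), and the receptor itself, Ptgfr, at -0.28 (adjusted p = 0.771).

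Among 8 other lipoxygenases and epoxide hydrolases, 1 was altered, also with DESeq2. Alox12e, an epidermal lipoxygenase, had 306 to 514 CPM (median 456) in the WT mice and 376 to 908 CPM (median 706) in Pparg-/-epi mice. Its groups overlapped and its log2 fold change of 0.61 (standard error 0.19, edgeR's quasi-likelihood test, adjusted p = 0.0447) was just past both limits, so that Alox12 and Alox12e were altered in opposite directions. Alox12b and Aloxe3, the lipoxygenases of the epidermal water barrier, had log2 fold changes of 0.46 (adjusted p = 0.261) and 0.10 (adjusted p = 0.845). Ephx1, microsomal epoxide hydrolase, had -0.40, with an adjusted p of 0.0147 but under the limit in size. The list's median log2 fold change was 0.26.

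**Figure D4:**
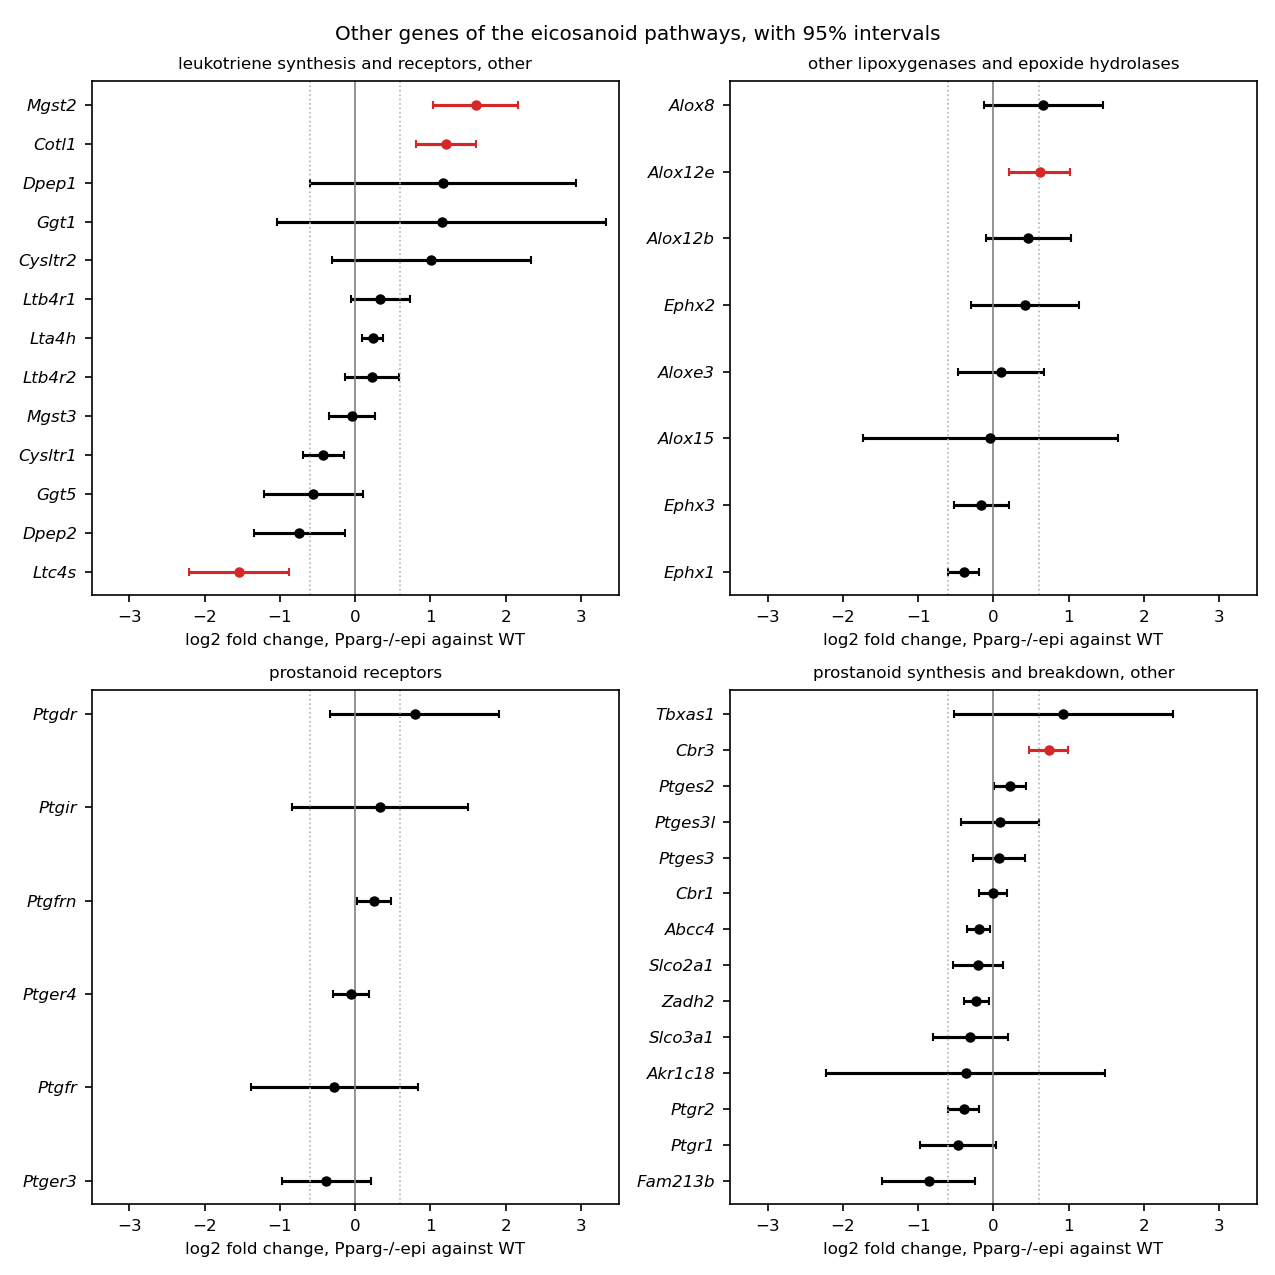
Log2 fold change (Pparg-/-epi against WT) with 95% interval of the 41 other pathway genes in 4 lists; red marks the 5 altered genes and dotted lines are at -0.6 and 0.6. Mgst2, Cotl1, Cbr3 and Alox12e lie to the right and Ltc4s to the left.

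Markers of some other cells in the scrapings moved as well. Over all genes, 5.19% were higher and 5.08% were lower. The marker lists, here and in the next paragraph, were chosen with earlier results of these data known. All 7 mast cell markers (the proteases Cpa3, Cma1, Mcpt4 and Tpsb2, the receptors Kit and Ms4a2, and Hdc) were higher in Pparg-/-epi mice, and their summed level was 20.5 to 97.4 CPM in the WT mice and 139 to 251 CPM in Pparg-/-epi mice. Hpgds, Alox5 and Ltc4s, which mast cells are known to express, were lower in the same mice, while Alox5ap, the partner of Alox5, was not altered. These are not all the pathway genes that mast cells may express, and the source cells were not measured. Of 6 sebocyte markers with a row, 5 were lower (Awat1, Awat2, Far2, Scd3 and Fa2h), with a summed level of 19.5 to 935 CPM in the WT mice and 2.41 to 10.2 CPM in Pparg-/-epi mice, and 3 of the 6 were at 0 counts in at least 1 mouse. The part of these cells in the values of the enzymes was not tested.

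Of the 6 Langerhans cell markers, 1, Epcam, was higher, and their sum was 1367 to 3130 CPM in the WT mice and 1876 to 2102 CPM in Pparg-/-epi mice. Of 8 macrophage markers 0 were altered (84.8 to 530 CPM in WT, 175 to 303 CPM in Pparg-/-epi mice), and of 4 T cell markers 1, Cd3e, was lower (125 to 243 and 162 to 225 CPM). Fibroblast markers (0 of 6 altered) spanned 1014 to 34533 CPM in the WT mice and 5324 to 11169 CPM in Pparg-/-epi mice, and endothelial ones (Emcn higher, 1 of 6) 7.99 to 133 and 34.5 to 204 CPM. Keratinocyte markers summed to 13830 to 37925 CPM in the WT mice and 25393 to 45908 CPM in Pparg-/-epi mice, with Krt14, 1 of 6, higher (2 with DESeq2), so the labelled tissue was present in every library. Neutrophil markers were few: 2 of 7 had a row, Cxcr2 was higher (both with DESeq2), and the sum was 0.944 to 4.92 CPM in the WT mice and 9.71 to 17.0 CPM in Pparg-/-epi mice. For platelets, which also express Alox12 and Ptgs1, 2 of 5 markers had a row, Itga2b was higher, and the sum was 2.52 to 11.9 CPM in the WT mice and 10.1 to 14.0 CPM in Pparg-/-epi mice. Melanocyte markers (4 of 5 with a row, 0 altered) summed to 3.52 to 38.0 and 10.5 to 166 CPM, and adipocyte markers (0 of 4 altered, 2 at 0 counts in at least 1 mouse) to 0.881 to 59.0 and 2.74 to 20.6 CPM. In the macrophage, fibroblast, melanocyte and adipocyte lists, 0 markers had an unadjusted p under 0.05 in edgeR's quasi-likelihood test, and DESeq2 altered 0. The part of these cells was likewise not tested.

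Likeness between genes was described by Pearson's r of log2 CPM after the mean of each group was subtracted, over the 12 mice, which share library and dissection effects. Within the groups, Ptgs1 and Alox12 varied together (r = 0.93, Spearman's rho = 0.92, n = 12), and Ptgs2 and Ptges had r = 0.76 (rho = 0.76). Hpgd ran against the other altered enzymes: r was -0.58 with Hpgds (rho -0.56), -0.62 with Alox12 (rho -0.71) and -0.39 with Alox5 (rho -0.29). Among Hpgds, Alox12 and Alox5, r was 0.39 to 0.57. Ptgs1 and Alox12 also varied with the summed markers of other cells: r was -0.90 and -0.83 with endothelial markers (rho -0.93 and -0.81), -0.88 and -0.82 with macrophage markers (rho -0.79 and -0.70), and 0.82 and 0.78 with keratinocyte markers (rho 0.53 and 0.50). Hpgds had r of -0.75 with fibroblast markers (rho -0.87), -0.78 with T cell markers (rho -0.76) and -0.76 with macrophage markers (rho -0.76). For Alox5, r was -0.78 with fibroblast markers (rho -0.57) and -0.77 with neutrophil markers (rho -0.53). Hpgd went the other way with macrophage markers (r = 0.71, rho = 0.78). Alox5ap had r of 0.88 with Langerhans cell markers (rho 0.89), and Ptgds 0.83 with melanocyte markers (rho 0.67). For Ptgs1 and Alox12, r was also -0.79 and -0.81 with adipocyte markers (rho -0.72 and -0.64). With sebocyte markers it was -0.75 and -0.76 (rho -0.75 and -0.73). With mast cell markers, r was -0.18 for Hpgds (rho 0.12) and -0.25 for Alox5 (rho -0.08). The part of these cells in the likeness of the enzymes was not tested. Of all genes outside the 9, Tjp3, a tight junction protein, was nearest to Ptgs1 (r = 0.99, rho = 0.98), before Hsdl1 and Spag1. Acsl1, a long-chain fatty acid activating enzyme, was nearest to Alox12 (r = 0.96, rho = 0.90), before Ggt6 and Trib3.

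Hpgds was nearest to Coro6 (r = 0.92, rho = 0.92), F8a and B4galnt2, and Alox5 to Gm38403 (r = 0.91, rho = 0.87), Cep78 and AU041133. Alox5ap was nearest to leukocyte genes, Hcls1 (r = 0.91, rho = 0.77), Laptm5 and the class II gene H2-Ab1, and Hpgd to Cggbp1 (r = 0.92, rho = 0.96), Pcdh20 and Efemp1. Ptgs2 was nearest to Pptc7 (r = 0.97, rho = 0.94), Dusp7 and Tnfrsf12a, and Ptges to Mknk2 (r = 0.97, rho = 0.96), Ets2 and Tmem50b. Ptgds, with its low counts, was nearest to Tango6 (r = 0.93, rho = 0.87), Elp3 and Hmgn2. With 12 mice and 14533 genes, high values of r are found for any gene, so these are descriptions only.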

How the data were processed

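Scraped epidermis of 12 mice, 6 WT and 6 Pparg-/-epi, was sequenced as paired reads of mRNA libraries. The authors aligned reads with STAR 2.5.2b to mm10, excluded multi-mapped reads, counted per gene with featureCounts (Subread 1.5.1) and deposited whole-number counts without normalization, as the submitters' processing notes and the study's methods give it. Reads shared by several genes are thus missing from the counts. Rows without a gene name, 2800 in number, were dropped, and 0 columns were left unused.

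Counts were scaled with TMM factors and compared with the quasi-likelihood test of edgeR 4.0.16 in R 4.3.3. The model held genotype alone, and p-values were adjusted by Benjamini-Hochberg over 14533 genes, in place of the likelihood ratio test of the study's methods, which was an alternative. The standard error is the log2 fold change over the square root of F. RPKM used the gene lengths of the table. CPM per mouse are after TMM scaling, and 1 count was worth 0.0520 to 0.107 CPM. Alternatives were library totals, size factors, the likelihood ratio test, DESeq2 1.42.0, at least 10 counts in every mouse, sex, RIN, age or name number as a second term (217 or lower against higher), females only, no WT mice of number 226, and each mouse left out. For the genes of the pathway and marker lists, DESeq2 was the only alternative reported. The p-values set the tested term against the spread between mice, and treat mice that share a name number as independent. The enzymes, pathway lists and marker lists were chosen with earlier results of these data known. Genes named were the enzymes, altered genes of the pathway lists with up to 3 of the highest RPKM besides, the 3 genes most like each enzyme, and the markers.

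Library columns were matched to mice by the labels and, for Pparg-/-epi replicates 11 and 12, by the library numbers of the study's supplement. Promoters were taken from RefSeq, and shared stretches were counted in GENCODE transcripts of the same build. Figures were drawn with matplotlib 3.10.9.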

Additional observations from a re-analysis of the deposited data

Results flagged for a closer look

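Within a group of 6 mice, 1 mouse stood far from the others in 2 of the 18 combinations of an enzyme and a group. Chance alone flags about 1 group in 20 if values are normally spread, which was not checked for CPM. Ptgs2 was 16.7 CPM in Pparg-/-epi replicate 12, against a median of 2.89 CPM and a range of 1.46 to 6.06 CPM in the other 5 mice, and the gap took 0.699 of the whole range. Ptgds was 5.94 CPM in Pparg-/-epi replicate 8, against a median of 0.543 CPM and a range of 0.258 to 1.51 CPM in the other 5, a gap of 0.780 of the range. Why these mice differed was not tested.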

How the results depend on the processing

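Hpgds, Alox5, Alox12 and Hpgd were below 0 on the log2 scale in all 23 alternatives. The number of altered genes (1493) and enzymes (4) fell to 651 and 2 in female mice alone and to 389 and 1 without the WT mice of name number 226, both with fewer mice. Each mouse left out gave 1116 to 2249 genes, the highest without WT replicate 2, and 3 to 5 enzymes. Library totals, size factors, the likelihood ratio test, DESeq2 and the count minimum gave 5 enzymes, Ptges being added. Sex, RIN and name number as a second term also gave 5, with Ptges, and age gave 4. The name number term set 217 or lower against higher, and only replicate 1 of the WT mice was in the lower block. It placed number 226 in the same block as other mice of both groups, so it could not adjust for that number. With RIN as a term, Hpgds was -1.40, Alox5 -0.90, Alox12 -0.94 and Hpgd -0.89 on the log2 scale, and these 4 stayed altered. Without the WT mice of name number 226 Ptgs1 was 0.13. Ptgs2 was -0.086 in females and ranged from -0.26 to 0.65 with each mouse left out. Ptgds was -0.12 with sex, -0.29 with RIN, -0.080 with age and -0.89 with name number as a term, and ranged from -0.72 to 0.51 with each mouse left out. The count minimum left no value for Ptgds. Calls were also lost for Hpgd (adjusted p = 0.187) and Alox12 (adjusted p = 0.114) in females. The cause was not tested. No paired analysis was possible because the labels give the groups no shared replicate number, and only 1 name number, 222, had a mouse in each group. Depth limits Ptgs2 and Ptgds, with as few as 24 and 3 counts in a mouse.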
